A study of Mus musculus with 8 samples.

Results

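The interferon response genes were a set of 39 mouse genes that type I or type II interferon is known to induce, and their signals were compared across 4 groups of sorted bone marrow progenitors. The genes were taken by symbol from a list that was chosen with earlier results of these data known. They were read through array probe sets annotated with exactly 1 gene symbol. Where a gene had several such probe sets, the one with the highest mean signal over the 8 arrays stood for it. Of the 39 genes, 37 had such a probe set, among 18193 genes on the array. Isg15 and Ifi44 had none, so their signals were not analysed, and they enter only the promoter counts. A gene was tested where its signal reached 50 on at least 2 arrays, which held for 24 of the 37, among 8883 genes tested in all.

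The study profiled common myeloid progenitors (CMP), which can form all myeloid lineages, and granulocyte-monocyte progenitors (GMP), the more committed cells that form granulocytes and monocytes. Both came from the bone marrow of male mice of a background that the labels spell mainly C576BL/6. The G0 TERTER/+ mice, labelled as normal, carried 1 copy of a telomerase reverse transcriptase allele fused to the estrogen receptor. The G4/G5 TERTER/ER mice, labelled as having telomere dysfunction, were late-generation animals homozygous for that allele, so every group carried at least 1 modified copy. The sample titles call the late generation G4, where the genotype labels call it G4/G5. Each group was 2 arrays, each from a pool of 4 mice matched in age and sex. The sources used here give neither the ages, nor whether a ligand of the estrogen receptor was given, nor whether CMP and GMP pools of 1 number shared mice. Because a replicate was a pool, p-values reflect how pools varied, not how single animals did.

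Type I interferons bind the receptor chains Ifnar1 and Ifnar2, and through the kinases Jak1 and Tyk2 they activate a complex with Stat2 and Irf9 that binds interferon-stimulated response elements. Type II interferon acts through Ifngr1, Ifngr2, Jak1 and Jak2, and its target genes carry gamma-activated sequences. The induced genes encode sensors of foreign nucleic acid, enzymes that degrade viral RNA or block its translation, and components of antigen presentation. Hematopoietic stem and progenitor cells are known to respond to interferon, and stem cells are known to keep some of these genes expressed without infection.

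The median signal per array was between 17.4 and 18.5 in CMP and between 14.3 and 15.7 in GMP. Of the 45101 probe sets, between 34.2% and 35.2% reached a signal of 50 in CMP, and between 31.6% and 32.7% in GMP. The 4 general myeloid progenitor markers listed reached 50 on all 8 arrays. Fcgr3, whose surface protein is high on GMP, read between 732 and 1457 on the GMP arrays, between 38.7 and 83.9 on 3 CMP arrays, and 617 in G4/G5 CMP pool 1. Of 7 markers listed as higher in GMP, 6 were measured. Their summed signal in CMP was 5879 and 12924 in the G0 pools against 22228 and 20495 in the G4/G5 pools. In GMP it was 26549 and 26060 against 30106 and 30621. For the 5 measured markers listed as higher in CMP, the sums in CMP were 3312 and 2473 against 5305 and 2281. The array of G4/G5 CMP pool 1 also stood apart in maturing neutrophil genes, 9 of 10 of which were measured. Their summed signal in CMP was 283 and 264 in the G0 pools against 53233 and 139 in the G4/G5 pools, and in GMP it was 1414 and 3262 against 28281 and 31169. The plasmacytoid dendritic cell markers, listed because that cell makes much interferon, had a summed signal of 737 to 936 in the CMP arrays and 519 to 633 in the GMP arrays, with all 6 of 6 measured. Most of that sum was Tcf4, and the defining markers Siglech and Ccr9 read at most 12.7 and 21.1. The part of other cell types in the results below was not tested, and in these bulk samples fewer cells of a type and less RNA per cell cannot be told apart.

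The promoter sequences of 5 members are shown because these genes differ in the results below while carrying, or lacking, the same short element. The windows are RefSeq sequences of build GRCm38.p6, 250 bases before to 50 bases after the start of the gene, read in the direction of the gene. Capitals mark the core of the interferon-stimulated response element, searched on both strands as GAAA, any 2 bases and a second GAAA. Rsad2 (chr12:26456403-26456702, minus strand) and Ifih1 (chr2:62646206-62646505, minus strand) each held 1 match, and their signals were lower in GMP than in CMP. Oas1a (chr5:120907476-120907775, minus strand) held 2 overlapping matches and B2m (chr2:122147437-122147736, plus strand) held 1, and neither passed the test in any comparison. Samd9l (chr6:3399522-3399821, minus strand), which had the smallest adjusted p among the members in G0, held none.
Rsad2: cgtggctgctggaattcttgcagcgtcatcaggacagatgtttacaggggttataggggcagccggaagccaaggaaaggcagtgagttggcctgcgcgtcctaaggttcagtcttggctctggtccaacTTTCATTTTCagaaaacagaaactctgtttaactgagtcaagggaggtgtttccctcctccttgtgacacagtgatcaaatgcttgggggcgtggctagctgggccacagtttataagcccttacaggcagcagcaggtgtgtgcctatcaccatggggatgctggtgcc
Ifih1: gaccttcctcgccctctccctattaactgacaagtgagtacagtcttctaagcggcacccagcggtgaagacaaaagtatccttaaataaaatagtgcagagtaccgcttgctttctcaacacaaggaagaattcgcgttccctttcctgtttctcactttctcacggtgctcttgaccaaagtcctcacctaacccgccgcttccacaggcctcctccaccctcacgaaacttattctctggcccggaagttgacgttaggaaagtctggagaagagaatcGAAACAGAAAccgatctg
Oas1a: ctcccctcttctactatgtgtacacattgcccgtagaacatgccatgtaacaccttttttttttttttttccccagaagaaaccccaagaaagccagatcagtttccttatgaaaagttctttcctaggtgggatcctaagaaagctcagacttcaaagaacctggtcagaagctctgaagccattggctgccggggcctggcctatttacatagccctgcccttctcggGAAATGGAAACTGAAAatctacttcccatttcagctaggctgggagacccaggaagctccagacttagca
B2m: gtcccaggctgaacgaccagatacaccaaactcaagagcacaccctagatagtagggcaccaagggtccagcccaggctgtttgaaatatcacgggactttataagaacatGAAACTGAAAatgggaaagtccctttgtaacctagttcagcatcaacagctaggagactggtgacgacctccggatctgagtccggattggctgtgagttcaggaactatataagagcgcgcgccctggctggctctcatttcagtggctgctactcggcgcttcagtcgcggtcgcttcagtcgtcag
Samd9l: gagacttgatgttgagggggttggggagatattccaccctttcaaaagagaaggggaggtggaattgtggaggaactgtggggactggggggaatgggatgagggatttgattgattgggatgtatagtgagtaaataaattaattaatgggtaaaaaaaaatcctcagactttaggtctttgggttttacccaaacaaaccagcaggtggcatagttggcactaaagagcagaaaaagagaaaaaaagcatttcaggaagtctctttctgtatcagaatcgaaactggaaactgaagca
The first matching base lay at position -120 from the start site in Rsad2, +33 in Ifih1, -20 and -14 in Oas1a and -139 in B2m. In Rsad2 the match reads on the opposite strand.

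Of the 39 genes, 30 had a promoter window in the reference table. This response element core was found in 12 of these 30 (40%), against 1079 of 27025 genes with a window (3.99%). The 12 were Stat2, Ddx58, Ifih1, Oas1a, Oas3, Eif2ak2, Ifit1, Ifit3, Isg15, Rsad2, Bst2 and B2m. The gamma-activated sequence TTCNNNGAA, which reads the same on both strands, was found in 9 of 30 (30%), against 2582 of 27025 genes (9.55%). Members that passed the test between cell types did not hold either element at a higher share than the other tested members. The response element core was in 2 of the 7 with a window that passed (28.6%) and in 5 of the 14 that did not (35.7%), and TTCNNNGAA was in 1 of 7 (14.3%) and 8 of 14 (57.1%). These are counts of letters in a window, given without a test.

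In mice of both genotypes, a share of the interferon response genes gave less signal in GMP than in CMP, and none gave more past the test. In G0 mice 9 of the 24 tested members fell (37.5%), against 10.2% of all genes tested, and 0 rose, against 10.6%. The 9 were Irf9, Ifih1, Ifit2, Herc6, Rsad2, Parp9, Parp14, Samd9l and Rtp4, with folds between 0.347 and 0.682. In G4/G5 mice 5 of 24 fell (20.8%), against 6.29% of all genes, and 0 rose, against 4.18%. These were Irf9, Rsad2, Tap1, Parp14 and Rtp4, with folds between 0.233 and 0.614. Because the list was chosen with earlier results of these data known, these shares are a description and not an independent test. The test was limma on log2(signal + 10), with Benjamini-Hochberg adjustment over all 8883 genes and a threshold of 0.05, and the added 10 shrinks the fold of dim genes.

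The median log2 difference, GMP minus CMP, over the 24 tested members was -0.53 in G0 mice (all genes tested, -0.02) and -0.45 in G4/G5 mice (all genes tested, -0.04). It was below 0 for 19 of 24 members in G0 and for 20 of 24 in G4/G5, where 48.7% and 46.3% of all genes were above 0. Without overlap of the pools, 15 of 24 members were lower and 0 higher in G0 GMP, against 33.1% and 32.2% of all genes. The same counts in G4/G5 were 15 lower and 3 higher, the latter Sp100, Trim25 and Ifi35, against 33% and 27.7%. Since a member could pass the filter on its CMP signal alone, the values without a filter bear on the whole set: 31 of 37 members were below 0 in both genotypes, with medians of -0.50 and -0.47 against -0.04 and -0.06 over 18193 genes. Without a filter 7 of 37 members fell in G0, against 3.37% of all genes, and 5 of 37 in G4/G5, against 1.71%. Both of those lists included Irf7, which the signal filter kept out of the main test.

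**Figure D1:**
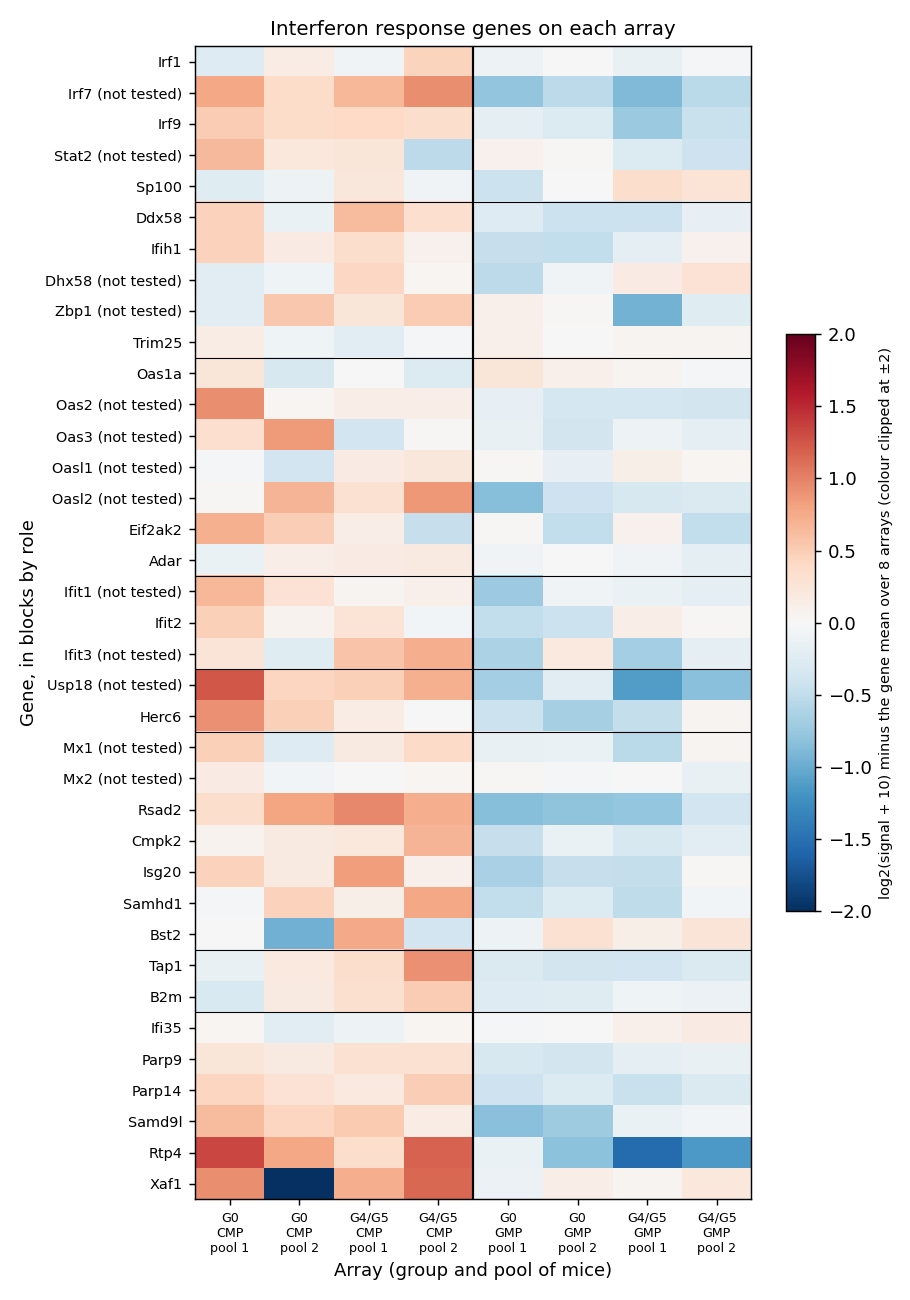
Signal of the 37 measured interferon response genes on each of the 8 arrays, as log2(signal + 10) minus the mean of the gene over the arrays, with genes in rows grouped by role and arrays in columns. The CMP columns are mostly red and the GMP columns mostly blue, and all 4 GMP arrays lie below all 4 CMP arrays for 17 of the 37 genes.

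All 4 GMP arrays lay below all 4 CMP arrays in 17 of the 37 measured members, against 11.3% of all measured genes, and all above in 0, against 8.01%. Among the 24 tested members the count was 12, against 17.5% of the genes tested. These 12 were Irf9, Ddx58, Ifih1, Rsad2, Cmpk2, Isg20, Samhd1, Tap1, Parp9, Parp14, Samd9l and Rtp4. The other 5, which did not reach the filter on enough arrays, were Irf7, Oas2, Oasl2, Ifit1 and Usp18.

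Among the regulators of transcription, Irf9, the DNA-binding partner of Stat2, was lower in GMP in both genotypes. It read 173 and 155 in the G0 CMP pools against 158 and 154 in the G4/G5 CMP pools, and its GMP values were 103 and 95.6 (G0) against 66.7 and 83.9 (G4/G5). The 4 CMP arrays lay close together and above every GMP array. The difference, GMP minus CMP, was -0.67 ± 0.17 on the log2 scale (SE, n = 2 pools a group, limma adjusted p = 0.0283) in G0 and -0.97 ± 0.17 (limma adjusted p = 0.0136) in G4/G5. Irf7, the factor that amplifies type I interferon production, was dim throughout, at 24.7 to 41.1 in CMP and 4.51 to 8.53 in GMP. Irf1, a factor induced strongly by type II interferon, read between 223 and 369 on all 8 arrays and its cell types overlapped. Stat2, the partner of Irf9, read between 14.2 and 45.0 and was not tested. Sp100, a component of nuclear bodies, overlapped between cell types in G0, and in G4/G5 it read 156 and 125 in CMP and 169.8 and 160.3 in GMP, which did not overlap.

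Of the sensors, Ifih1, the cytosolic helicase that detects long double-stranded RNA, fell in G0. Ifih1 read 231 and 187 in G0 CMP and 117 and 115 in G0 GMP, a difference of -0.79 ± 0.18 on the log2 scale (limma adjusted p = 0.0189). Its G4/G5 values were 214 and 177 in CMP and 146 and 177 in GMP, so that the higher GMP pool nearly equalled the lower CMP pool. Ddx58, the helicase RIG-I that detects short RNA with a free triphosphate end, read 80.4 to 143 in CMP and 63.4 to 78.6 in GMP, and it did not pass in either genotype. Trim25, the ubiquitin ligase that acts with Ddx58, read between 509.9 and 658 with cell types overlapping in G0. Dhx58, a helicase that tunes both sensors, reached 52.0 on 1 array, and Zbp1, a sensor of left-handed nucleic acid that can start cell death, at most 22.1, so neither was tested.

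Of 7 effectors that act on double-stranded RNA, 3 were tested and none passed between cell types. Oas1a, which makes the oligoadenylate that activates RNase L, read between 167 and 252 on all arrays, with CMP and GMP overlapping. Eif2ak2, the kinase PKR that stops translation, read 187 and 158 in G0 CMP and 112 and 75.3 in G0 GMP, a difference of -0.84 (limma adjusted p = 0.0714). Adar, which edits adenosine in double-stranded RNA, read between 105 and 139. The dim relatives Oas2 and Oasl2 read 27.9 to 60.3 and 26.2 to 54.8 in CMP, and 18.6 to 23.0 and 9.72 to 19.0 in GMP, so that CMP lay above GMP for each. Oas3 and Oasl1 reached at most 20.3 and 49.3.

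In the IFIT family, whose proteins bind viral RNA and block its translation, only Ifit2 was bright enough to test. Ifit2 read 214 and 160.3 in G0 CMP and 105 and 110.1 in G0 GMP, a difference of -0.73 ± 0.19 (limma adjusted p = 0.0296). In G4/G5 the cell types overlapped, at 186 and 146 in CMP and 167 and 154 in GMP. Ifit1 read 18.8 to 33.9 in CMP and 6.60 to 16.4 in GMP, and Ifit3 at most 20.1.

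In the ISG15 system, Herc6, the ligase that attaches ISG15 to proteins in mouse, fell in G0. Herc6 read 151 and 108 in G0 CMP and 52.8 and 43.7 in G0 GMP, a difference of -1.24 ± 0.25 (limma adjusted p = 0.0137). In G4/G5 it read 84.2 and 74.4 in CMP and 50.9 and 77.9 in GMP, which overlapped. Usp18, the protease that removes ISG15 and also damps the type I receptor, read 37.1 to 73.5 in CMP and 6.12 to 20.4 in GMP. It reached 50 on too few arrays for the test.

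Among the other antiviral effectors, Rsad2, which encodes viperin, an enzyme that makes a chain-terminating nucleotide, fell in both genotypes. Rsad2 read 65.2 and 92.5 in the G0 CMP pools against 105 and 88.2 in the G4/G5 CMP pools, and its GMP values were 22.7 and 23.8 (G0) against 24.5 and 35.3 (G4/G5). Only CMP arrays reached the filter of 50, so it entered the test through the group where it was high. The difference was -1.40 ± 0.26 (limma adjusted p = 0.0106) in G0 and -1.42 ± 0.26 (limma adjusted p = 0.0158) in G4/G5. Cmpk2, a nucleotide kinase, read 96.6 to 152 in CMP and 63.6 to 82.5 in GMP. Samhd1, which hydrolyses deoxynucleotides, read 220.1 to 389 in CMP and 154 to 214 in GMP. Isg20, an exonuclease, read 75.2 to 133 in CMP and 40.7 to 70.9 in GMP. None of these 3 passed the test, although no GMP array reached a CMP array in any of them. A second Samhd1 probe set, at the filter on all 8 arrays, overlapped between cell types, at 203 to 338 in CMP and 137 to 271 in GMP. It differed by -0.33 in G0 and -0.05 in G4/G5, GMP minus CMP. Bst2, the membrane protein tetherin, varied more within CMP (30.8 to 124) than within GMP (63.7 to 87.7). Mx1 and Mx2, dynamin-like antiviral proteins, reached at most 17.5 and 3.45.

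Of the antigen presentation genes, Tap1, which carries peptides into the endoplasmic reticulum, fell in G4/G5. Tap1 read 547 and 813 in G4/G5 CMP and 325 and 347 in G4/G5 GMP, a difference of -0.97 ± 0.20 (limma adjusted p = 0.0246). In G0 it read 383 and 491 in CMP and 349 and 329 in GMP, which did not overlap and did not pass. B2m, the light chain of class I molecules, read 5063 to 8936 in CMP and 5232 to 5927 in GMP.

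Of the remaining induced genes, 4 fell in G0 and 2 of these also in G4/G5. Samd9l, a repressor of translation known in mouse and human as a restraint on myeloid growth, read 409.9 and 354 in the G0 CMP pools against 380.3 and 292 in the G4/G5 CMP pools, and its GMP values were 142 and 156 (G0) against 236 and 249.7 (G4/G5). Its 2 G0 GMP pools were the lowest of the 8 arrays, and the G4/G5 GMP pools lay between them and CMP. The difference was -1.30 ± 0.17 (limma adjusted p = 0.00357) in G0, and -0.44 ± 0.17 (limma adjusted p = 0.123) in G4/G5. Rtp4, an interferon-induced transporter protein that restrains the response, read 298 and 199 in the G0 CMP pools against 145 and 268 in the G4/G5 CMP pools, and its GMP values were 102 and 59.3 (G0) against 32.3 and 45.3 (G4/G5). Rtp4 had the largest differences of the members that passed, -1.53 ± 0.35 (limma adjusted p = 0.0198) in G0 and -2.10 ± 0.35 (limma adjusted p = 0.0116) in G4/G5. All GMP arrays lay below all CMP arrays for it. Rtp4 reached the signal filter on 4 CMP arrays and on 2 GMP arrays, both from G0. Its G4/G5 GMP pools, at 32.3 and 45.3, were both below the filter, so in G4/G5 only the CMP pools reached it.

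Parp9 and Parp14, members of the ADP-ribosyltransferase family that modulate interferon signalling, had a similar pattern. Parp9 read 234 and 222 in the G0 CMP pools against 243 and 244 in the G4/G5 CMP pools, and its GMP values were 155 and 149.7 (G0) against 171 and 175 (G4/G5). Parp14 read 153 and 137 in the G0 CMP pools against 128 and 159 in the G4/G5 CMP pools, and its GMP values were 80.8 and 90.3 (G0) against 78.7 and 89.2 (G4/G5). Both had every GMP array below every CMP array. Parp9 differed by -0.55 ± 0.13 in G0 (limma adjusted p = 0.0238) and by -0.47 in G4/G5 (limma adjusted p = 0.0589). Parp14 differed by -0.70 ± 0.18 in both genotypes (limma adjusted p = 0.0285 in G0 and 0.0424 in G4/G5, the latter 0.0509 with pool number as a block within the comparison). Ifi35, an interferon-induced leucine zipper protein, read between 544 and 708 with cell types overlapping in G0.

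**Figure D2:**
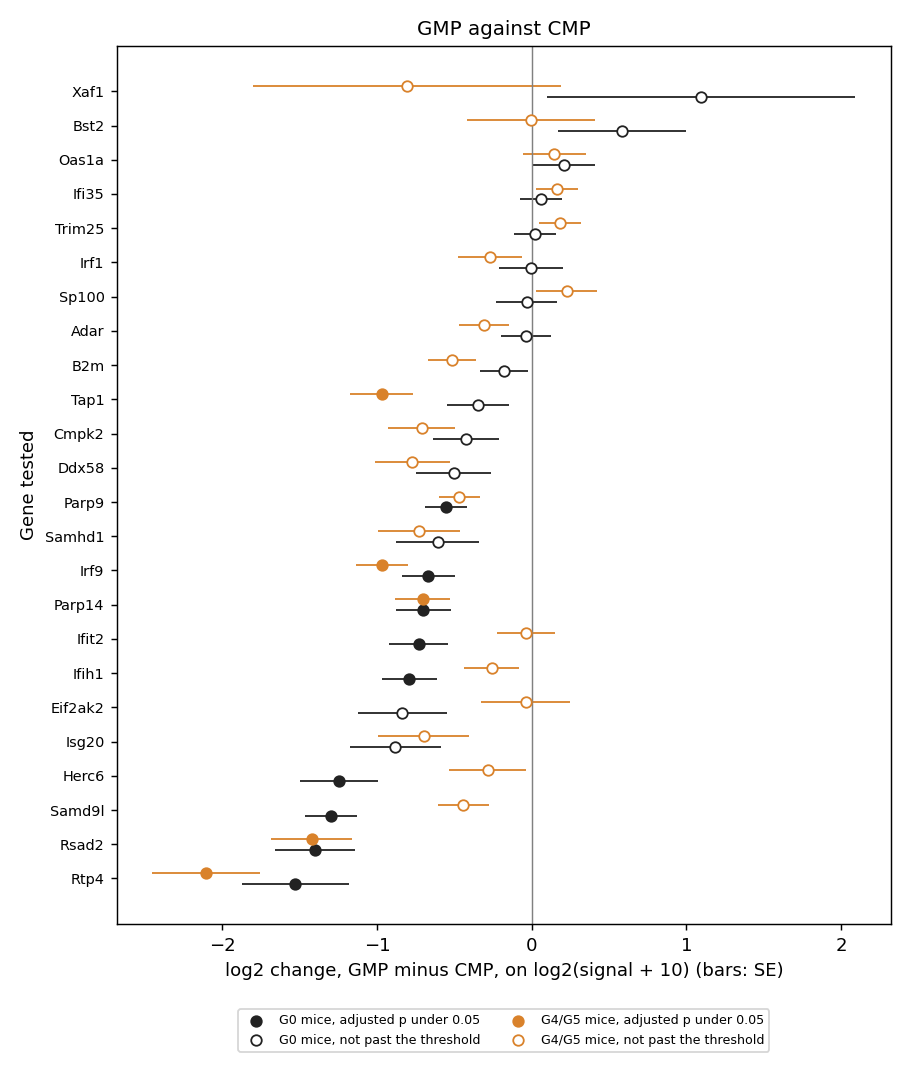
Difference of GMP minus CMP for the 24 tested members on the log2(signal + 10) scale, with points for G0 mice and for G4/G5 mice, bars for 1 SE and filled points for adjusted p under 0.05. Filled points lie left of 0 throughout, 9 for G0 and 5 for G4/G5, with Rtp4 farthest left in both.

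Individual arrays decided how many members passed. Without G0 GMP pool 1 the count in G0 dropped from 9 to 0, and without G0 GMP pool 2 to 1, where all genes called dropped from 1844 to 67 and 434. At an unadjusted p under 0.05, 10 of the 24 members differed without G0 GMP pool 1, where 1900 of all 8883 genes did. Without G0 CMP pool 1, 4 fell and 1, Xaf1, rose, among 1619 genes called. Leaving out either G4/G5 GMP pool took the count in G4/G5 from 5 to 0, as all genes called dropped from 930 to 65 without pool 1 and 105 without pool 2. At an unadjusted p under 0.05 these fits held 7 and 11 members, beside 1322 and 1736 of all genes. The adjusted count was 8 without either G0 CMP pool, where 1278 and 1285 genes were called. It was 3 when either G0 GMP pool or pool 2 of G4/G5 CMP was left out, where 390, 394 and 608 genes were called. G4/G5 CMP pool 1 was the CMP array with high maturing neutrophil signal, which both G4/G5 GMP pools also carried. Without this CMP array the median log2 difference of the members in G4/G5, GMP minus CMP, was -0.40, against -0.08 over all genes. Pool number pairs the genotypes in the series text, and with it as a block shared by all groups the count was 11 in G0, with 2092 genes called, and 8 in G4/G5, with 1225. Summed neutrophil signal was higher in GMP than in 3 of the 4 CMP arrays, and its part in these differences was not tested.

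Between genotypes, 0 of the 24 tested members passed in either cell type. In CMP this was against 0.0113% of all genes, 1 of 8883, and in GMP against 0%. At an unadjusted p under 0.05, 4 members differed in CMP (16.7% of 24, against 13.4% of all genes) and 5 in GMP (20.8%, against 7.87%). The median log2 difference, G4/G5 minus G0, was 0.12 in CMP and 0.09 in GMP, with 0.04 and 0.01 over all genes. Leaving out 1 array moved these medians. In CMP the median was 0.01 without G0 CMP pool 2 (12 members above 0 and 12 below, all genes 0.06), 0.05 with pool 1 of G0 left out and 0.03 with pool 2 of G4/G5 left out. In GMP it was 0.03 without G4/G5 GMP pool 2, 0.17 without G4/G5 GMP pool 1 and 0.16 without G0 GMP pool 2. A difference above 0 was seen in 14 of 24 members in CMP (55.7% of all genes) and 17 of 24 in GMP (50.9% of all genes). For the mean of both cell types 0 members passed, against 0.0338% of all genes, and 3 at an unadjusted p under 0.05, against 17.8%. Without overlap between genotypes, 6 members were higher and 2 lower in G4/G5 CMP, against 21.7% and 14.8% of all genes, and 8 were higher and 4 lower in G4/G5 GMP, against 28.9% and 26.5%.

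The members that differed most upward in CMP were Xaf1, Bst2, Tap1 and B2m, none past the test. Xaf1, a protein that counters the apoptosis inhibitor XIAP, read 368 and 13.1 in the G0 CMP pools against 319 and 430.2 in the G4/G5 CMP pools, and its GMP values were 173 and 207 (G0) against 196 and 220.4 (G4/G5). A single array, G0 CMP pool 2, was far below the other 7. The difference in CMP was 2.03 ± 1.00 (limma adjusted p = 0.421), and it was 0.01 without pool 2 and 4.04 (limma adjusted p = 0.00218) without pool 1. A later probe set of Xaf1 did not show the drop, with CMP values of 76.5 and 176 (G0) against 21.8 and 69.1 (G4/G5). Bst2 read 68.6 and 30.8 in the G0 CMP pools against 124 and 51.0 in the G4/G5 CMP pools, which overlapped, with a difference of 0.68 ± 0.42 (limma adjusted p = 0.506).

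Both antigen presentation genes were higher in each G4/G5 CMP pool than in each G0 CMP pool. Tap1, whose values stand above, differed by 0.61 ± 0.20 (limma adjusted p = 0.312), and in GMP by -0.01. B2m read 5063 and 7082 in the G0 CMP pools against 7884 and 8936 in the G4/G5 CMP pools, and its GMP values were 5232 and 5334 (G0) against 5927 and 5792 (G4/G5). Its difference was 0.49 ± 0.16 in CMP (limma adjusted p = 0.310), and without G0 CMP pool 2 it was 0.73 (limma adjusted p = 0.0405). A second B2m probe set differed by 0.30 in CMP and 0.17 in GMP. Leaving out 1 CMP array at a time gave Tap1 differences between 0.33 (pool 2 of G4/G5 left out) and 0.89 (pool 1 of G4/G5 left out). For B2m they ran from 0.24, without G0 CMP pool 1, to 0.73. The B2m value was 0.58 without G4/G5 CMP pool 1, the CMP array with high neutrophil signal. Quantile normalization gave 0.10 for B2m and 0.61 for Tap1.

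Downward, the 4 largest differences in CMP were those of Eif2ak2, Herc6, Rtp4 and Samd9l. Eif2ak2 read 187 and 158 in the G0 CMP pools against 121 and 77.7 in the G4/G5 CMP pools, and its GMP values were 112 and 75.3 (G0) against 118 and 75.2 (G4/G5). Both G4/G5 CMP pools were below both G0 CMP pools, and the GMP pools overlapped. The difference in CMP was -0.76 ± 0.29 (limma adjusted p = 0.321). Herc6, with the same order of pools in CMP, differed by -0.63 ± 0.25 (limma adjusted p = 0.346). Rtp4 differed by -0.29 ± 0.35 and Samd9l by -0.19 ± 0.17, with overlapping pools.

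In GMP the 4 members with the largest upward differences were Samd9l, Ifit2, Sp100 and Ifih1, and in all 4 both G4/G5 pools were above both G0 pools. Samd9l, whose values stand above, differed by 0.67 ± 0.17 (limma adjusted p = 0.595), and by the same size with a limma adjusted p of 0.0202 when only the 4 GMP arrays were fitted. That fit passed 360 of all 8883 genes, where the main fit passed 0, and 1 of the 24 members. Ifit2 differed by 0.54 ± 0.19 (limma adjusted p = 0.595) and Ifih1 by 0.44 ± 0.18 (limma adjusted p = 0.612). Sp100 read 109 and 121 in the G0 CMP pools against 156 and 125 in the G4/G5 CMP pools, and its GMP values were 95.2 and 132 (G0) against 169.8 and 160.3 (G4/G5), and its GMP difference was 0.52 ± 0.20 (limma adjusted p = 0.603). A second Sp100 probe set differed the same way, by 0.52 in CMP and 0.58 in GMP. Both G4/G5 GMP pools also carried more neutrophil signal than both G0 GMP pools, and its part in these 4 differences was not tested.

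The 4 lowest differences in GMP were those of Rtp4, Irf9, Oas1a and Adar, and for each both G4/G5 pools were below both G0 pools. Rtp4 differed by -0.86 ± 0.35 (limma adjusted p = 0.612) and Irf9 by -0.37 ± 0.17 (limma adjusted p = 0.633). Oas1a read 252 and 167 in the G0 CMP pools against 209 and 173 in the G4/G5 CMP pools, and its GMP values were 251 and 227 (G0) against 219 and 204 (G4/G5), and its GMP difference was -0.17 ± 0.20 (limma adjusted p = 0.839). Adar read 110.4 and 135 in the G0 CMP pools against 138 and 139 in the G4/G5 CMP pools, and its GMP values were 116 and 121 (G0) against 115 and 105 (G4/G5), and its GMP difference was -0.10 ± 0.16 (limma adjusted p = 0.882).

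**Figure D3:**
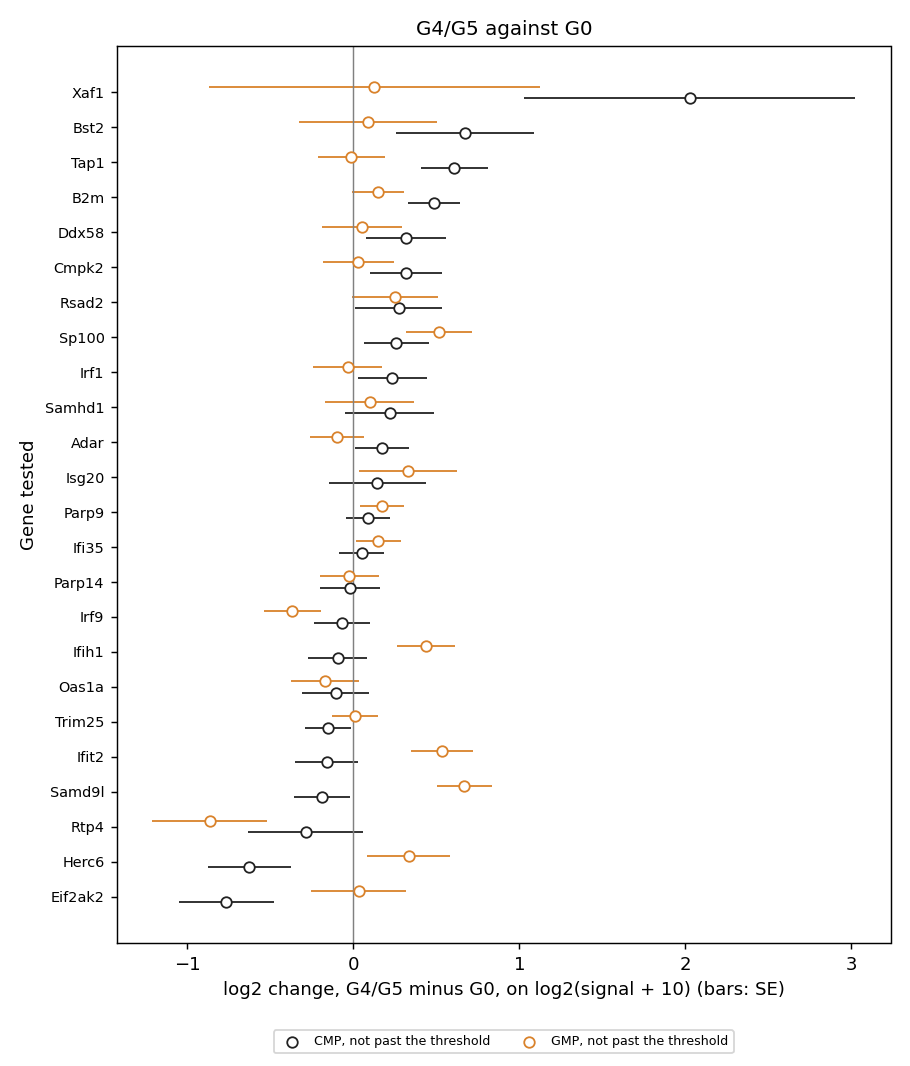
Difference of G4/G5 minus G0 for the 24 tested members on the log2(signal + 10) scale, with points for CMP and for GMP and bars for 1 SE. All points are open, since 0 members passed the adjusted threshold, and the widest bar belongs to Xaf1 with an SE of 1.00 in CMP.

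Whether the genotype difference itself differed between cell types was tested as an interaction, and 0 of 24 members passed, against 0% of all genes. At an unadjusted p under 0.05 there were 3, against 3.97% of all genes. These 3 were Herc6, Samd9l and Ifit2, whose difference in GMP exceeded that in CMP by 0.96 ± 0.36, 0.86 ± 0.24 and 0.70 ± 0.27. All 3 had a limma adjusted p of 0.994. So the lower GMP signal of these genes passed in G0 and not in G4/G5, while the change in that gap did not pass its own test.

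**Figure D4:**
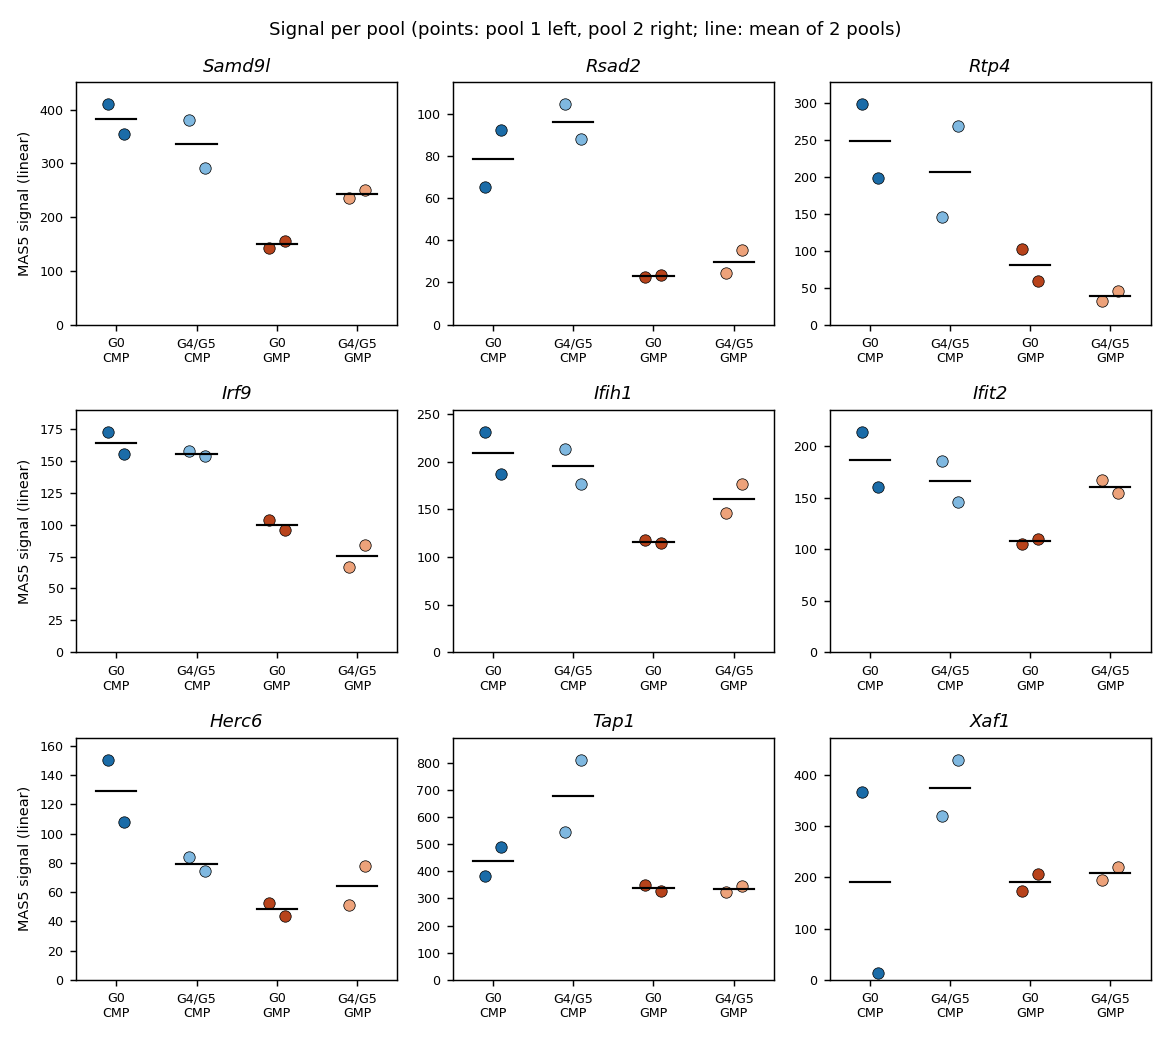
Linear MAS5 signal of 9 members in each pool, with points for pools 1 and 2 and a line for their mean, in G0 CMP, G4/G5 CMP, G0 GMP and G4/G5 GMP. Samd9l, Ifit2 and Ifih1 are lowest in G0 GMP, Rsad2, Rtp4 and Irf9 are low in both GMP groups, and Xaf1 has 1 array at 13.1.

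The wider pathway held 61 further genes, 57 of them measured and 43 tested. Of 7 interferon genes named, 5 were measured, none of these reached the filter, and their highest signal was 14.0. Ifnk and Ifne had no probe set with a single symbol. The filter is not a detection limit, so whether these cells held interferon transcripts was not settled. All 7 receptor and kinase genes were tested. Ifnar1 read 99.0 to 175 and Ifnar2 380.3 to 653 over the 8 arrays, and neither passed in any comparison. Jak2, the kinase of the type II receptor, read 388 to 527 in CMP and 239 to 281 in GMP, and fell in both genotypes, by 0.89 and 0.67 on the log2 scale (limma adjusted p = 0.0103 and 0.0395). Jak1 read 624 to 929 in CMP and 399.9 to 475 in GMP, and also fell in both, by 0.79 and 0.68. Ifngr2, a chain of the type II receptor, rose in G4/G5 GMP against G4/G5 CMP, by 1.17. Ifngr2 read 47.0 and 36.8 in G4/G5 CMP, both below the filter, and 100.7 and 112 in G4/G5 GMP. The filter was reached on 1 CMP array, from G0, and on 4 GMP arrays. Ifngr2 therefore entered the test through the cell type where it was high.

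Between cell types in G0, 9 of the 43 further genes were lower in GMP (against 10.2% of all genes) and 4 higher (against 10.6%). The 9 were Jak1, Jak2, Irf2, Gbp2, Ifi47, Irgm1, Parp12, Trim21 and Trim30a. In G4/G5, 4 were lower, Gbp2, Jak1, Jak2 and Trim30a, and 2 higher, Ifngr2 and Ikbke, of 43, against 6.29% and 4.18% of all genes. Gbp2, a guanylate-binding protein, read 104 to 193 in CMP and 54.2 to 75.9 in GMP, and Irf2, a repressor of interferon-induced genes, 159.9 to 305 and 67.3 to 118. The immunoproteasome subunits Psmb8 and Psmb10 and the signalling genes Myd88 and Ikbke were the 4 that rose in G0. Psmb8 read 1096 and 1071 in G0 CMP, against 1639 to 1650.4 in G0 GMP, a difference of 0.60 (limma adjusted p = 0.0117).

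No gene of this wider list passed between genotypes or in the interaction. H2-D1, a class I heavy chain whose probe set may also detect related class I genes, and Psmb8 and Psmb9 were higher in both G4/G5 CMP pools than in both G0 CMP pools, as Tap1 and B2m were. H2-D1 read 2066 and 2679 in the G0 CMP pools against 4036 and 3515 in the G4/G5 CMP pools, a difference of 0.68 ± 0.14 (limma adjusted p = 0.234). Psmb8 read 1655 and 1527 in G4/G5 CMP, a difference of 0.55 ± 0.11 (limma adjusted p = 0.229), and Psmb9 differed by 0.51 ± 0.12 (limma adjusted p = 0.237). These 3 were picked after their values were seen. Between genotypes in GMP they differed by 0.36 (H2-D1), -0.02 (Psmb8) and 0.14 (Psmb9). Over the GMP arrays Psmb8 read 1535 to 1718. Of all genes tested, 21.7% were higher in G4/G5 CMP without overlap of the pools, and 14.8% were lower. Of the 43 further genes tested, 30 differed above 0 in CMP and 13 below, where 55.7% of all genes were above 0. Irgm1 and Trim30a were lower in both G4/G5 CMP pools than in both G0 CMP pools, with differences of -0.44 and -0.22.

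Other probe sets of the same genes gave a check on the choice of probe set. The 37 members had 69 single-symbol probe sets, 18 members had several, and 9 of the later ones reached the filter. Of these 9, the sign matched the first probe set in 7 for GMP against CMP in G0, in 6 for the same comparison in G4/G5, and in 6 and 4 for the genotype comparisons in CMP and GMP. The second Sp100 probe set differed by -0.98 and -0.92 between cell types (GMP minus CMP, G0 and G4/G5), where the first differed by -0.03 and 0.23.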

How the data were processed

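Total RNA from 8 sorted cell pools was measured on Affymetrix whole-genome expression arrays. The values are microarray intensities on a linear scale that, per the submitters' processing notes and the series text, the authors computed as MAS5 probe-set signals, scaled to a target of 100. The trimmed mean of each array was 100.001. The sources used here give no detection calls, and the number of arrays limits the precision.

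The deposited intensities were not normalized further, and 10 was added to each before taking log2. Of 45101 probe sets, 34945 had 1 symbol, 932 several, 9160 none and 64 were controls. Tests used limma 3.58.1 (R 4.3.3) with 1 mean per group over 8 arrays, 4 residual degrees of freedom, an intensity trend and Benjamini-Hochberg adjustment over 8883 genes. No 2 arrays were identical. Tables and figures used Python 3.11.15, pandas 2.3.3 and matplotlib 3.10.9. The procedure was tested on simulated data.

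The members and the wider list were chosen with earlier results of these data known. Symbols Cgas and Sting1 replaced older names after the table was read. Named members were those past the threshold in any of 6 comparisons and the 4 highest and 4 lowest differences between genotypes in each cell type. Alternatives were pseudocounts of 1 and 32, a filter of 100 or none, quantile normalization, median centring, the mean of all probe sets, leaving out probe sets marked as less specific (suffixes _x_at and _s_at), no intensity trend, pool number as a block, only the 4 arrays compared, and leaving out each array. Deviations of same-numbered pools from their group means correlated with r = 0.25 in CMP and 0.14 in GMP between genotypes, and 0.22 in G0 and 0.03 in G4/G5 between cell types, over 8883 genes.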

Additional observations from a re-analysis of the deposited data

Results flagged for a closer look

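Adar, the editing enzyme, differed between genotypes in opposite directions in the 2 cell types with no overlap of pools in either. The log2 difference, G4/G5 minus G0, was 0.17 in CMP and -0.10 in GMP. The test of the difference between them gave -0.27 ± 0.23 with a limma adjusted p of 0.994. Of the other Adar probe sets, 2 differed by -0.19 and -0.05 in CMP and by 0.03 and 0.50 in GMP.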

How the results depend on the processing

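The precision was set by 2 pools a group. The 14 member results that passed kept their direction in all 278 alternatives and their side of the threshold in 217. Of the 16 genotype differences named that did not pass, 314 of 319 alternatives gave the same call, 3 passed and 2 turned the direction. Those 2 were Rtp4 in CMP, which ran from -0.71 to 0.13 when arrays were left out and was 0.13 without G4/G5 CMP pool 1, and Adar in GMP, 0.14 with the mean of all probe sets. Rsad2 and Bst2 had no value under a filter of 100. Leaving out each array in turn gave 0 to 11 members called for GMP against CMP in G0, where 9 passed, and 0 to 8 in G4/G5, where 5 passed, against 0 to 1 for the genotype difference in CMP, for the mean of both and for the interaction, and 0 in GMP. Pool number as a replicate block gave 11 in G0 and 5 in G4/G5 within each comparison, and 11 and 8 shared by all groups, with 0 genotype calls. Of all 8883 genes, 1890 and 1063 were called with the block within each comparison, and 2092 and 1225 with the shared block. With only the 4 arrays compared, 3 members passed for GMP against CMP in G4/G5, where 428 of all 8883 genes did. Between genotypes in GMP that setting passed 1 of 24 members, Samd9l, and 360 of all 8883 genes, against 0 genes in the main fit. Quantile normalization gave 6 and 4 and median centring 9 and 4 members lower in GMP, in G0 and G4/G5. Of all 8883 genes, 1580 and 807 were called with quantile normalization, and 1824 and 940 with median centring. The median log2 difference of the members, GMP minus CMP, was -0.45 and -0.33 with quantile normalization. With median centring it was -0.50 and -0.40. The cause of these changes was not tested, beyond the loss of arrays or genes that each setting makes.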
